A study of Rattus norvegicus with 59 samples.

Results

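The livers described here are the 15 control livers of the cadmium (Cd) series, chosen by their labels alone out of 59 arrays in the whole study. They comprise 5 livers collected on day 1, 5 on day 3 and 5 on day 7 after the injection, and the livers of days 3 and 7 (10 in all) were compared with those of day 1. The donors were male Sprague-Dawley rats, an outbred stock, that received sterile saline once by intraperitoneal injection. No liver exposed to a metal entered any comparison. A second set of 15 saline livers, collected on the same days as controls of the chromium (Cr) series, served for comparison. The age of the rats is not given in the sources used here, every rat had been injected, and the time since the injection cannot be told apart from the day on which the tissue was taken.

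Whole liver RNA was hybridised to Affymetrix Rat Genome arrays, and every level given here is a log2 signal, so that a difference of 1 is a doubling. Pairs of the 15 arrays correlated at 0.978 to 0.991 over the 15521 brighter probe sets that were tested. No pair of arrays held the same values, and precision is limited by how few arrays each day has. The median standard deviation (SD) of a probe set between livers of the same day was 0.151. Albumin (Alb), the main secreted protein of hepatocytes, lay between 14.82 and 14.89 in the 15 livers. Of 56 tested entries in 15 lists of cell type markers, 0 had an adjusted p of 0.05 or less between days 3 and 7 and day 1 (limma). Of all probe sets 1.1% did, so that a count of 0 in 56 says little about the markers. At an unadjusted p of 0.05 or less there were 12 of the 56, against 1655 of all 15521 probe sets (10.7%). The log2 of the summed signals of the hepatocyte markers was 17.02 to 17.07 on day 1, 17.01 to 17.08 on day 3 and 17.01 to 17.08 on day 7. All 8 tested sinusoidal endothelial markers were above 0 in their log2 difference (0.15 to 0.52, median 0.30), as were 57.3% of all probe sets. Their summed signal was 11.19 to 12.27 on day 1, 11.63 to 12.39 on day 3 and 11.97 to 12.36 on day 7. All 5 erythroid markers were below 0 (-0.40 to -0.08, median -0.22), with summed signals of 14.39 to 14.96, 14.05 to 15.16 and 14.23 to 14.87 on days 1, 3 and 7. Of 12 Kupffer cell markers 9 were below 0 (median -0.07). In the Cr controls 3 of the 8 endothelial markers were called higher, against 0.387% of all probe sets. The part of these cell types in the results was not tested.

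Hepatocytes of an adult liver are mostly quiescent, and when they divide they pass through DNA synthesis and mitosis, for which separate groups of genes are transcribed. Genes of mitosis are held silent in resting cells by the DREAM complex, which binds the cell cycle genes homology region (CHR). They are activated in dividing cells through the CHR together with CCAAT boxes bound by NF-Y. Of the CHR, a short element, only the forms TTTGAA and TTCGAA were searched here. Liver also answers growth hormone and cytokines through STAT transcription factors, which bind the palindrome TTCNNNGAA and switch on their own inhibitors of the SOCS family, Cish among them.

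These promoters are shown because the first 5 genes stand for the main fall after day 1 and Cish had the largest called fall of a named gene. They run from 250 bases before to 50 bases after the transcription start in RefSeq (build GRCr8), with CHR and CCAAT letters on either strand in capitals for the first 5 and TTCNNNGAA in capitals for Cish. The stretches are chr1:199952544-199952843 on the minus strand for Mki67, chr10:84473044-84473343 on the minus strand for Top2a, chr20:19265043-19265342 on the plus strand for Cdk1, chr8:79981609-79981908 on the minus strand for Ccnb2, chr2:33655176-33655475 on the minus strand for Ccnb1 and chr8:116850719-116851018 on the plus strand for Cish.
Mki67: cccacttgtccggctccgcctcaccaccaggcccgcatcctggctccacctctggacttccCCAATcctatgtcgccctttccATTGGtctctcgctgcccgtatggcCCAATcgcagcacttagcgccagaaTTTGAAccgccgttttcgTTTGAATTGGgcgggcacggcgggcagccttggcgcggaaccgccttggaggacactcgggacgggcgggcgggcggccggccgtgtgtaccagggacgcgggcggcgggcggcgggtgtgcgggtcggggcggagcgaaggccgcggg
Top2a: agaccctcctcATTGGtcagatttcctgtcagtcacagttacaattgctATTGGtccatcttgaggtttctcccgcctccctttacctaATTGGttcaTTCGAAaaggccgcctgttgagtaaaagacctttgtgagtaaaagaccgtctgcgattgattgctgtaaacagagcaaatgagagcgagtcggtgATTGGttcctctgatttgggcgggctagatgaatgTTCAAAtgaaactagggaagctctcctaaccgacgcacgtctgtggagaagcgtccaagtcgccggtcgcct
Cdk1: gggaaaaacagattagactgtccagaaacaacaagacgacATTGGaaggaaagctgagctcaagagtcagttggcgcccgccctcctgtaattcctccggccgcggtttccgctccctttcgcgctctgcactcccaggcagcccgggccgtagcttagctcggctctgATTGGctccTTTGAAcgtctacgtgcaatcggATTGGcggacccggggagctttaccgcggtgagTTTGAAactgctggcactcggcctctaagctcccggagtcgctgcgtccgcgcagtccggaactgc
Ccnb2: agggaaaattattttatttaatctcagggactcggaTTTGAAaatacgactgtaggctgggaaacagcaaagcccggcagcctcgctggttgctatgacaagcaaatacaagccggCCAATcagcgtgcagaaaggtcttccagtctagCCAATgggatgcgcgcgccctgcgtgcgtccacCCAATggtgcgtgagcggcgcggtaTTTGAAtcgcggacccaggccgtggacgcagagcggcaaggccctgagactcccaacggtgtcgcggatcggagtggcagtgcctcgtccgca
Ccnb1: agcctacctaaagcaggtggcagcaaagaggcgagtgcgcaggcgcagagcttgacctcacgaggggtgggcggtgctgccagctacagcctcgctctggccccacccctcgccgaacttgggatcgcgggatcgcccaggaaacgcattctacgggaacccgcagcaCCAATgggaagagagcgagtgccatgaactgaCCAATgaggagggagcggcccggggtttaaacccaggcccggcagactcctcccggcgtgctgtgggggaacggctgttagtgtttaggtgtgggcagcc
Cish: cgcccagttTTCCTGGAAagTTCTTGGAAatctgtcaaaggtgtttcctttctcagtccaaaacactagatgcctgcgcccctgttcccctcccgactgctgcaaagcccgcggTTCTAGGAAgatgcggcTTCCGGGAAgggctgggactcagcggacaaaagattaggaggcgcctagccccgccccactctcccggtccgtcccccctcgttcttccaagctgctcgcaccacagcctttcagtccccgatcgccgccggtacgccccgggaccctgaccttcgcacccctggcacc

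Of the 29 mitosis genes measured and tested, 24 had a promoter in the RefSeq table, and 16 of those 24 (66.7%) held a CHR on either strand, against 19.5% of all 27457 promoters. A CCAAT box stood in 19 of the 24 (79.2%), against 37.7% of all promoters, and both elements stood in 14 (58.3%), against 7.83%. Mki67, Top2a, Cdk1 and Ccnb2 each held 2 CHR matches, while Ccnb1 held 2 CCAAT boxes and no TTTGAA or TTCGAA in this window. Other forms of the CHR were not searched, so Ccnb1 was not shown to lack the element. In the Mki67 promoter 1 CHR shares 1 letter with a CCAAT box on the other strand. Of 18 promoters of DNA synthesis genes, 4 held a CHR (22.2%) and 9 held a CCAAT box. The Cish promoter held 4 copies of TTCNNNGAA, a palindrome that stood at least once in 8.68% of all promoters. The promoters of Dusp6, Foxa2, Hhex, Pdk4 and Bcl6, which are described with Cish, held no copy in this window. Of the 6 promoters of these genes and Cish, 5 held a CCAAT box (83.3%) and 0 held a CHR, so a high CCAAT share was not particular to mitosis genes.

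The mitosis genes were low on days 3 and 7 and high on day 1. On days 3 and 7 together, 145 of 15521 probe sets were lower than on day 1 and 26 were higher at an adjusted p of 0.05 or less (limma, Benjamini-Hochberg over all probe sets tested). The called share was 1.1% of the probe sets, 0.934% lower and 0.168% higher, and 67 probe sets (0.432%) also differed by at least 1.8-fold. Of the 29 tested genes of the G2/M and mitosis list, 29 were lower on days 3 and 7, with a median log2 difference of -1.16 (2.23-fold), against a median of 0.02 over all probe sets. The members of this and the DNA synthesis list were chosen with earlier results of these data known, so their counts are a description. In 26 of the 29 every liver of days 3 and 7 lay below every liver of day 1, as 0.677% of all probe sets did. Averaged over the 29 genes, the log2 signal of the livers was 7.84, 7.52, 8.32, 7.98 and 7.79 on day 1, 6.93, 6.84, 6.30, 6.90 and 6.93 on day 3 and 6.89, 6.87, 6.50, 6.83 and 6.95 on day 7. The lowest liver of day 1, liver 2, still lay above the highest of the later livers. Day accounted for a median of 81.1% of the variance of a mitosis gene over the 15 livers, against 12.8% for all probe sets tested. In whole liver, fewer dividing cells and less of these RNAs per cell cannot be told apart.

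**Figure D1:**
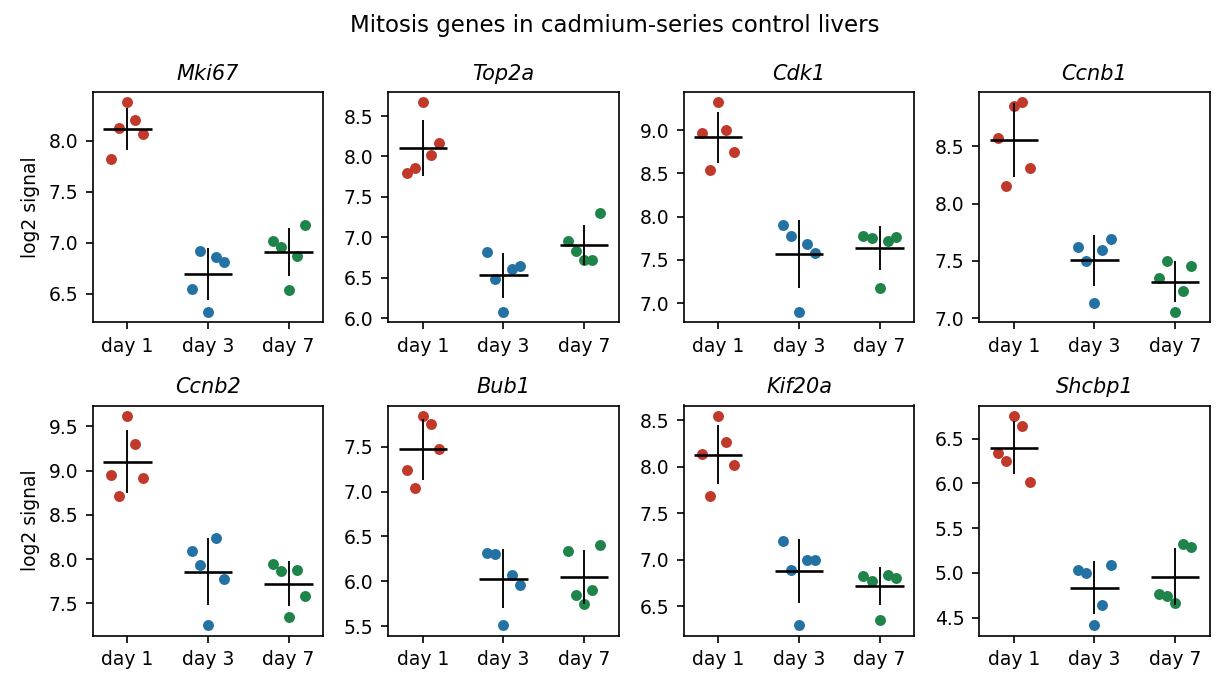
Log2 signal (y axis) of 8 mitosis genes in each cadmium-series control liver on days 1, 3 and 7 (x axis); points are livers, horizontal lines are means and vertical lines are ±1 SD (n = 5 per day). In each panel the 5 livers of day 1 lie above the 10 later livers, as for Mki67, which averaged 6.80 ± 0.26 on days 3 and 7 (SD, n = 10) and 8.12 ± 0.20 on day 1 (SD, n = 5).

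Mki67 encodes the Ki-67 protein that coats mitotic chromosomes and marks cycling cells. Its log2 signal was 7.82, 8.12, 8.38, 8.21 and 8.06 on day 1, 6.54, 6.92, 6.32, 6.86 and 6.81 on day 3, and 7.02, 6.95, 6.53, 6.87 and 7.17 on day 7. All 10 later livers lay below all 5 livers of day 1 (log2 difference -1.32 ± 0.12, SE, limma, adjusted p = 0.000125). Top2a, the topoisomerase that untangles replicated DNA, had log2 signals of 7.80, 7.85, 8.67, 8.02 and 8.16 on day 1, 6.81, 6.48, 6.08, 6.61 and 6.65 on day 3, and 6.96, 6.83, 6.72, 6.72 and 7.30 on day 7. It too separated the days without overlap (log2 difference -1.39 ± 0.15, SE, limma, adjusted p = 0.000182).

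The kinase that drives entry into mitosis and its cyclin partners fell in step. Cdk1, the mitotic kinase itself, had log2 signals of 8.97, 8.54, 9.32, 9.0 and 8.74 on day 1, 7.90, 7.77, 6.90, 7.69 and 7.58 on day 3, and 7.77, 7.75, 7.18, 7.71 and 7.76 on day 7. Ccnb1, which encodes cyclin B1, had log2 signals of 8.57, 8.15, 8.85, 8.88 and 8.31 on day 1, 7.62, 7.50, 7.13, 7.60 and 7.69 on day 3, and 7.35, 7.50, 7.06, 7.24 and 7.46 on day 7. For both genes every later liver was below every day 1 liver, and the log2 differences were -1.31 ± 0.16 for Cdk1 and -1.14 ± 0.12 for Ccnb1 (SE, limma, adjusted p = 0.000239 and 0.000182). Of the other cyclins, Ccnb2 (cyclin B2) fell by 1.31 ± 0.17 and Ccna2 (cyclin A2), which acts from DNA synthesis onward, fell by 1.25 ± 0.15. The kinases of the centrosome and the kinetochore also fell: Aurkb by 1.07 ± 0.12, Aurka by 1.02 ± 0.16 and Plk1 by 0.80 ± 0.12.

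Bub1, a kinase of the spindle checkpoint, had the lowest difference of the list. Its log2 signals were 7.24, 7.04, 7.84, 7.76 and 7.48 on day 1, 6.32, 6.30, 5.51, 6.07 and 5.96 on day 3, and 6.34, 5.85, 5.74, 5.90 and 6.40 on day 7. Liver 3 of day 3 was the lowest and liver 3 of day 1 the highest (log2 difference -1.43 ± 0.16, SE, limma, adjusted p = 0.000203). Mad2l1, another checkpoint protein, fell by 0.65 ± 0.11 with overlap between the days, and Birc5, the survivin subunit of the Aurora B complex, fell by 0.69 ± 0.14. Cdc20 and Ube2c, which take part in the destruction of mitotic cyclins by the anaphase-promoting complex, fell by 1.16 ± 0.21 and 1.33 ± 0.16. Among spindle motors and spindle-bound proteins, Kif20a fell by 1.34 ± 0.15, Kif22 by 1.28 ± 0.17, Kif11 by 0.96 ± 0.11 and Hmmr by 1.27 ± 0.17. Ect2, an exchange factor that starts the cleavage furrow, fell by 1.29 ± 0.15, and Nuf2 of the kinetochore fell by 1.19 ± 0.13 (all SE, limma).

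Outside the list, Shcbp1, which acts at the midbody late in cytokinesis, had the next largest called fall after Cish among genes with 1 symbol. Its log2 signals were 6.34, 6.25, 6.75, 6.63 and 6.02 on day 1, 5.04, 4.99, 4.42, 4.64 and 5.09 on day 3, and 4.77, 4.74, 4.67, 5.32 and 5.29 on day 7. The lowest liver of day 1 was well above the highest later liver (log2 difference -1.50 ± 0.15, SE, limma, adjusted p = 0.000182), a 2.83-fold difference. Every later liver lay below 5.40, the mean signal required for testing, so Shcbp1 passed that filter only through day 1. Its call was kept without the filter, but the later signals were dim, which limits what the fold says. Cdkn2c, an inhibitor of the G1 kinases Cdk4 and Cdk6, fell with the mitosis genes (log2 difference -0.48 ± 0.07, SE, limma, adjusted p = 0.00202), although a dimmer probe set of that gene gave 0.05. Wee1, the kinase that restrains Cdk1, fell by 0.51 ± 0.09 (SE, limma), with overlap because liver 2 of day 1 stood at 6.58 and liver 5 of day 7 at 6.75.

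DNA synthesis genes moved less. Of the 22 tested, 10 were lower on days 3 and 7, 0 were higher and 12 did not pass, with a median log2 difference of -0.35 (1.27-fold). Of all probe sets 0.934% were lower. In 6 of the 22 every liver of days 3 and 7 lay below every liver of day 1, as 0.677% of all probe sets did. Chaf1b, 1 of those 6, was not called (adjusted p = 0.0869, limma). Rrm1, the large subunit of ribonucleotide reductase, had log2 signals of 7.83, 7.84, 8.06, 7.96 and 7.77 on day 1, 7.36, 7.23, 7.03, 7.34 and 7.38 on day 3, and 7.24, 7.35, 7.26, 7.23 and 7.49 on day 7. Its days were separated (log2 difference -0.60 ± 0.07, SE, limma, adjusted p = 0.000234). The probe set of the small subunit Rrm2, which its paralog Rrm2l1 shares, fell by 1.32 ± 0.20, and thymidine kinase Tk1 fell by 0.60 ± 0.09.

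Among the subunits of the MCM helicase, Mcm6 changed most. Its log2 signals were 6.55, 6.87, 6.71, 6.99 and 6.66 on day 1, 5.88, 5.79, 5.21, 5.98 and 5.67 on day 3, and 5.76, 5.92, 5.95, 5.78 and 6.81 on day 7. Liver 5 of day 7 was at the level of day 1 while the other 9 later livers were below it (log2 difference -0.88 ± 0.16, SE, limma, adjusted p = 0.0091). Mcm5 and Mcm7 were called with log2 differences of -0.36 and -0.35, and Mcm3 (-0.29, adjusted p = 0.0529, limma) and Pcna, the replication clamp (-0.24, adjusted p = 0.092, limma), were not. On day 3 alone 11 of the 22 were lower than on day 1 and on day 7 alone 4 were, against 0.85% and 0.58% of all probe sets. The difference between days 7 and 3 was not significant for any gene. The count of 10 was 5 without liver 4 of day 1, and 7 to 12 with any other single liver left out.

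Ccnd1, Myc and Cdkn1a, which act in G1 before DNA synthesis, did not pass. Ccnd1 (cyclin D1) had a log2 difference of 0.27 ± 0.27, Myc one of -0.60 ± 0.26, and the cell cycle inhibitor Cdkn1a (p21) one of -0.34 ± 0.18. Myc was 6.87 to 8.16 on day 1, 6.01 to 6.95 on day 3 and 6.44 to 8.23 on day 7, so that its days overlapped.

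Separately, day 3 was lower than day 1 at 132 probe sets and higher at 21 (0.85% and 0.135% of those tested, 0.986% in all). Day 7 was lower at 90 and higher at 6 (0.58% and 0.0387%, 0.619% in all). Of these, 85 probe sets were called on both days in the same direction, and both comparisons share the day 1 livers. Between days 7 and 3, 0 probe sets were called (limma, adjusted p of 0.05 or less), and 757 of 15521 (4.88%) had an unadjusted p of 0.05 or less. An ordinary linear model called 0 as well. Without liver 3 of day 7 the count for day 7 against day 1 was 145 in place of 96.

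The saline livers of the chromium series also had lower mitosis genes on days 3 and 7. In that series 176 probe sets were lower and 60 were higher on days 3 and 7 than on day 1 (1.13% and 0.387% of those tested, 1.52% in all). The 29 mitosis genes were all lower there as well, with a median log2 difference of -1.38, and 6 of the 22 DNA synthesis genes were lower. Averaged over the 29 genes, the Cr livers lay at 7.83 to 8.14 on day 1, 6.80 to 7.35 on day 3 and 5.25 to 6.95 on day 7. Day 7 was not tested against day 3 in that series. Mki67 fell by 1.32 in the Cd controls and by 1.78 in the Cr controls, and Shcbp1 by 1.50 and 1.57. Of the Cd calls, 103 were also called in the Cr controls, which is 60.2% of the Cd list and 43.6% of the Cr list, and all 103 were lower in both. Of the 26 probe sets higher in Cd controls, 0 were called in Cr controls. In 18 of the 26 the sign was the same, as it was in 58.8% of all probe sets tested, so that count says little. The array means differed slightly between the series, so that levels were not compared across them, and only changes within each series were.

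**Figure D2:**
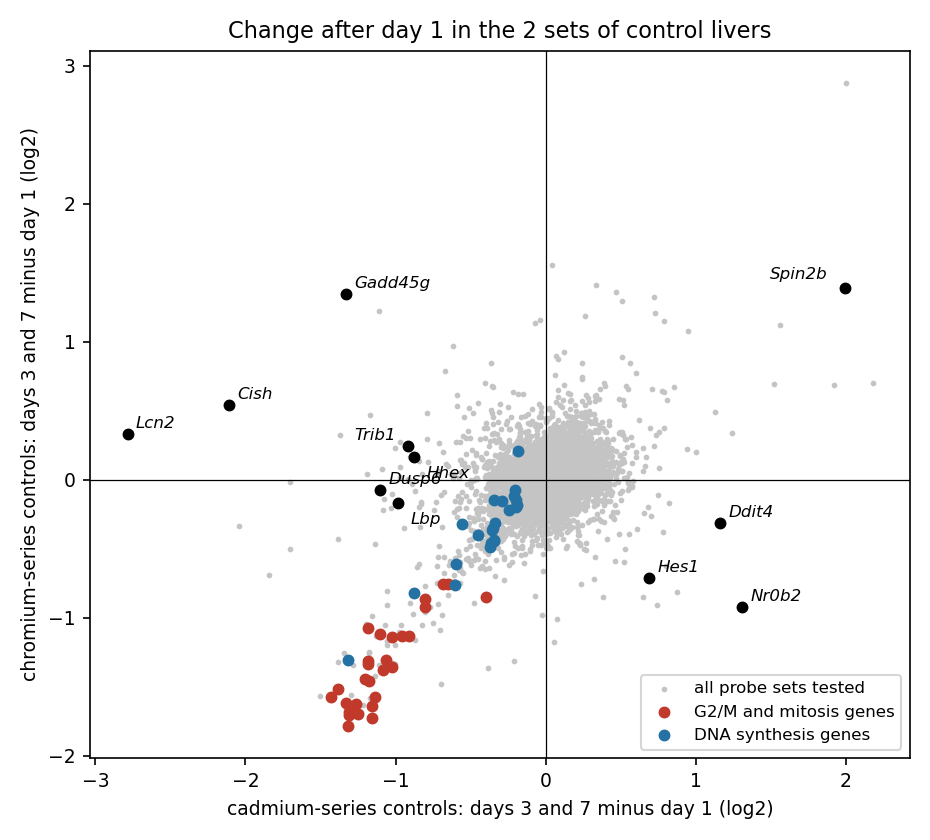
Log2 difference, days 3 and 7 minus day 1, in chromium-series controls (y axis) against cadmium-series controls (x axis) for 15521 probe sets (grey), with mitosis genes in red, DNA synthesis genes in blue and named genes in black. The 29 mitosis genes lie below 0 on both axes, while Cish (-2.11 in Cd controls and 0.54 in Cr controls) and Ddit4 (1.16 and -0.31) lie on opposite sides of 0.

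Some falls were called in the Cd controls and not in the Cr controls. Of the 145 lower probe sets, 132 had the same sign in the Cr controls, against 58.8% of all probe sets tested. The 42 that were not called there were sorted out by the threshold, and their changes in Cr controls ran in both directions. Among them were Mcm6 (log2 difference -0.88 in Cd and -0.82 in Cr controls) and Rrm2 (-1.32 and -1.31). Cish, Dusp6, Foxa2, Hhex, Trib1, Pdk4 and Lbp were among them too. A test of the difference between the series called 0 of 15521 probe sets (limma, 1088 at an unadjusted p of 0.05 or less), so these genes were not shown to differ between the series with all livers in.

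Cish, an inhibitor of STAT signalling whose promoter with 4 STAT palindromes is printed above, had the largest fall of any named gene that was called. Its log2 signals were 7.26, 7.39, 7.84, 7.52 and 7.51 on day 1, 5.51, 5.24, 4.34, 5.07 and 5.34 on day 3, and 4.25, 4.42, 7.84, 5.83 and 6.08 on day 7. All 5 livers of day 3 and 4 of day 7 lay below day 1, and liver 3 of day 7 was at the top of the day 1 range (log2 difference -2.11 ± 0.43, SE, limma, adjusted p = 0.0221). The fold was 4.32. In Cr controls Cish averaged 6.31 ± 0.91 on day 1, 6.40 ± 1.31 on day 3 and 7.31 ± 0.32 on day 7 (SD, n = 5 each), a log2 difference of 0.54. The call was lost when liver 3, 4 or 5 of day 1 was left out and in the ordinary linear model.

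Dusp6, the phosphatase that inactivates ERK, had log2 signals of 10.55, 10.55, 10.01, 10.36 and 10.52 on day 1, 9.32, 9.60, 9.10, 9.16 and 9.09 on day 3, and 8.98, 9.10, 10.15, 8.96 and 9.49 on day 7. Again liver 3 of day 7 lay within the day 1 range and the other 9 below it (log2 difference -1.10 ± 0.17, SE, limma, adjusted p = 0.00205), and all 3 probe sets of Dusp6 were lower at the threshold. Its call was kept with any one liver left out. It was the 1 called of 15 tested immediate early genes.

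Foxa2 and Hhex are transcription factors of liver development that adult hepatocytes keep expressing. Foxa2 had log2 signals of 9.75, 9.96, 9.90, 10.29 and 9.84 on day 1, 8.97, 9.10, 8.73, 8.94 and 8.75 on day 3, and 8.76, 8.95, 10.23, 9.11 and 8.80 on day 7. Hhex had log2 signals of 11.03, 11.34, 11.57, 11.34 and 11.38 on day 1, 10.16, 10.10, 10.17, 9.77 and 10.18 on day 3, and 10.48, 10.52, 11.92, 10.61 and 10.63 on day 7. The signal of liver 3 of day 7 was within the day 1 range for Foxa2 and above it for Hhex, and the other later livers lay below every liver of day 1 (log2 differences -0.92 ± 0.19 and -0.88 ± 0.19, SE, limma, adjusted p = 0.0229 and 0.0313). Trib1, a pseudokinase that directs C/EBP factors to degradation, showed the same arrangement with log2 signals of 6.42, 6.40, 6.28, 5.92 and 6.29 on day 1, 5.06, 4.74, 5.53, 5.54 and 5.01 on day 3, and 5.24, 5.51, 6.55, 5.02 and 5.24 on day 7. Its difference was -0.92 ± 0.21 (SE, limma, adjusted p = 0.0403). Of 12 tested hepatocyte transcription factors Foxa2 was the 1 called. The calls of Foxa2, Hhex and Trib1 were each lost on leaving out 1 of several livers, among them livers 2, 3 and 4 of day 1.

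Pdk4, the kinase that shuts off pyruvate dehydrogenase in fasting, had log2 signals of 10.22, 10.03, 9.83, 10.01 and 10.12 on day 1, 9.23, 9.02, 9.50, 9.19 and 9.59 on day 3, and 9.38, 9.05, 9.85, 9.47 and 9.79 on day 7. Of the later livers only liver 3 of day 7 reached the lowest liver of day 1 (log2 difference -0.63 ± 0.12, SE, limma, adjusted p = 0.0161). A second probe set of Pdk4 gave -0.37 and was not called, and the call was lost without liver 1 of day 1. Of the 23 tested genes of fatty acid oxidation Pdk4 was the 1 called.

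Liver 3 of day 7 was thus placed with day 1 for these genes and with the later livers for mitosis. Among the 103 probe sets lower in both series it reached the nearest day 1 liver in 1, whereas among the 42 not called in Cr controls it did so in 14. Liver 5 of day 7 also did so in 14 of the 42 and in 11 of the 103, and the 8 other later livers in 0 to 4 of the 42. Among the 26 higher probe sets liver 3 of day 7 reached the nearest day 1 liver in 8. Without that liver Cish fell by 2.38, Hhex by 1.01 and Trib1 by 1.05.

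Without liver 3 of day 7 the test of the difference between the series called 16 probe sets, 8 of them more negative in Cd controls and 8 more positive. That liver was singled out after its values were seen, because it sat at the day 1 level for several of these genes, so a larger change of such genes follows from leaving it out and the 16 calls are a description. Leaving out any other single liver of either series gave 0 to 4 calls. Named genes among the 16 were Gadd45g, Cish, Trib1, Hhex and Dact1 with the more negative change in Cd controls. Masp2, Lpar6, Abat, Hes1, Ddit4 and Nr0b2 were those with the more positive one. Without that liver Gadd45g, a cytokine-inducible growth arrest gene, had a log2 difference of -1.58 in Cd controls and 1.35 in Cr controls. Nr0b2 (SHP), the nuclear receptor that represses bile acid synthesis, had 1.55 in Cd controls and -0.92 in Cr controls, and Hes1, a transcriptional repressor downstream of Notch, had 0.80 and -0.71. With all livers in, the log2 signals of Nr0b2 were 8.13, 7.59, 6.28, 8.46 and 7.54 on day 1, 9.24, 8.85, 9.72, 9.03 and 8.93 on day 3, and 9.24, 9.63, 6.74, 8.97 and 8.74 on day 7. The lowest were liver 3 of day 7 and liver 3 of day 1, and the gene was not called (log2 difference 1.31 ± 0.40, SE, limma, adjusted p = 0.187).

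**Figure D3:**
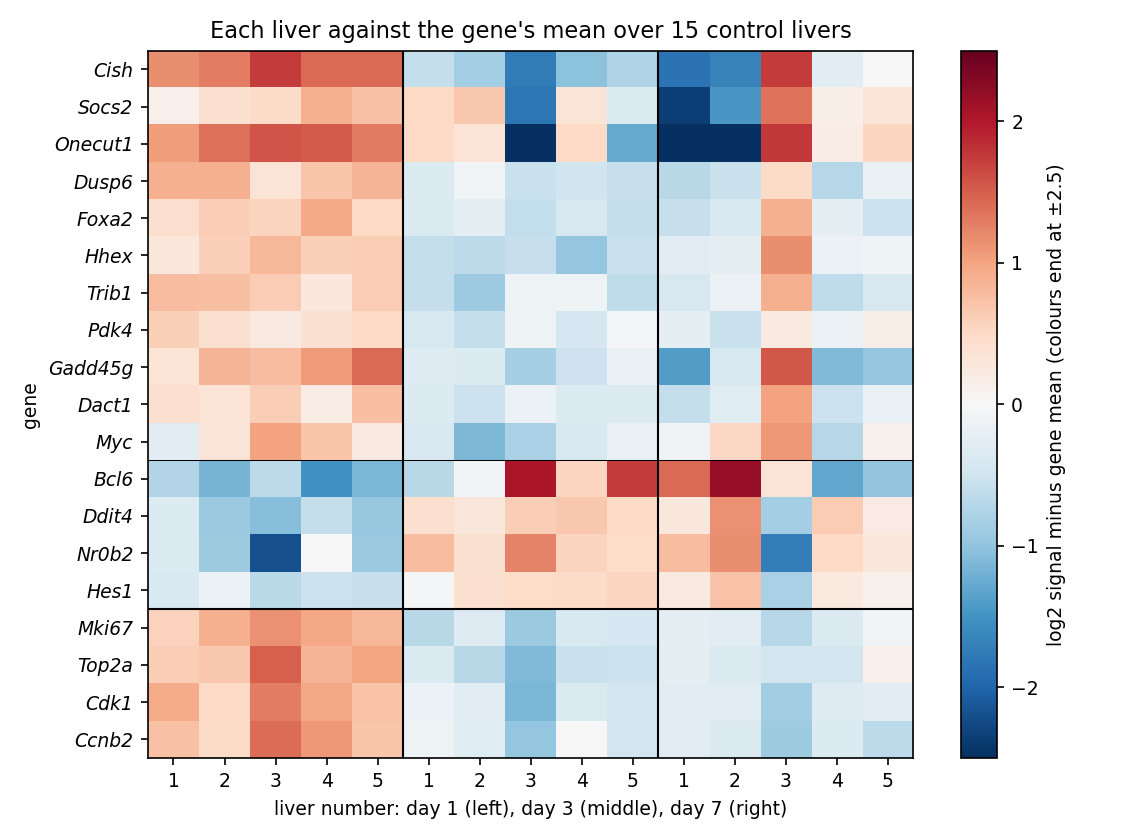
Log2 signal of 19 genes (rows) in 15 cadmium-series control livers (columns, days 1, 3 and 7 from left to right) minus the mean of the gene over the 15 livers; red is above and blue below that mean. The column of liver 3 of day 7 has the colours of day 1 in the upper rows (Cish 7.84) and of the later livers in the 4 mitosis rows at the bottom (Mki67 6.53).

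Growth hormone drives Cish, Socs2 and Onecut1 and lowers the repressor Bcl6 in rodent liver, and its pulses in male rats are separated by troughs. Onecut1, the liver factor HNF6, had log2 signals of 10.31, 10.63, 10.83, 10.80 and 10.55 on day 1, 9.75, 9.60, 6.46, 9.76 and 8.004 on day 3, and 5.97, 5.97, 11.04, 9.44 and 9.81 on day 7. Liver 3 of day 3 and livers 1 and 2 of day 7 were far below the rest, and the comparison of days was not called (log2 difference -2.04 ± 0.77, SE, limma, adjusted p = 0.324). Socs2, a SOCS family inhibitor, had log2 signals of 7.11, 7.38, 7.47, 7.88 and 7.72 on day 1, 7.47, 7.66, 5.17, 7.30 and 6.63 on day 3, and 4.63, 5.54, 8.34, 7.15 and 7.30 on day 7. The same 3 livers were the lowest. Bcl6 had log2 signals of 7.98, 7.55, 8.05, 7.19 and 7.57 on day 1, 8.004, 8.64, 10.74, 9.24 and 10.45 on day 3, and 10.13, 10.88, 9.05, 7.40 and 7.73 on day 7. Those 3 livers and liver 5 of day 3 were above 10, whereas all 5 livers of day 1 lay between 7.19 and 8.05. Igf1, the main secreted product of growth hormone action, lay between 13.61 and 13.86 in all 15 livers. Neither Socs2 (adjusted p = 0.655) nor Bcl6 (adjusted p = 0.264) was called (limma), and of 16 tested genes of the growth hormone axis Cish was the 1 called.

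Of the 22 tested acute phase proteins 1 was lower on days 3 and 7, 0 were higher and the median difference was -0.04. The 1 called was Lbp, the plasma protein that binds bacterial lipopolysaccharide. It had log2 signals of 7.85, 7.30, 8.61, 8.50 and 8.40 on day 1, 6.65, 7.30, 6.95, 6.94 and 7.37 on day 3, and 6.96, 7.27, 7.18, 7.29 and 7.62 on day 7. Livers 1, 3, 4 and 5 of day 1 stood above all later livers while liver 2 of day 1 lay within the later range (log2 difference -0.98 ± 0.19, SE, limma, adjusted p = 0.0148). The call was lost without liver 3, 4 or 5 of day 1. Lcn2, a siderophore-binding protein of the acute phase, had log2 signals of 7.73, 4.23, 9.94, 10.27 and 9.56 on day 1, 7.04, 6.15, 4.64, 7.06 and 5.01 on day 3, and 4.64, 4.21, 4.75, 5.19 and 6.93 on day 7. Here livers 3, 4 and 5 of day 1 were highest and liver 2 of that day was near the bottom of the whole range, and its difference of -2.78 ± 0.82 was not called (SE, limma, adjusted p = 0.160). A2m, a protease inhibitor that rats induce in inflammation, differed by -1.38 ± 0.32 (SE, limma, adjusted p = 0.0527). In Cr controls Lcn2 averaged 5.21 ± 0.41 on day 1, 5.77 ± 0.77 on day 3 and 5.31 ± 1.04 on day 7 (SD, n = 5 each).

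**Figure D4:**
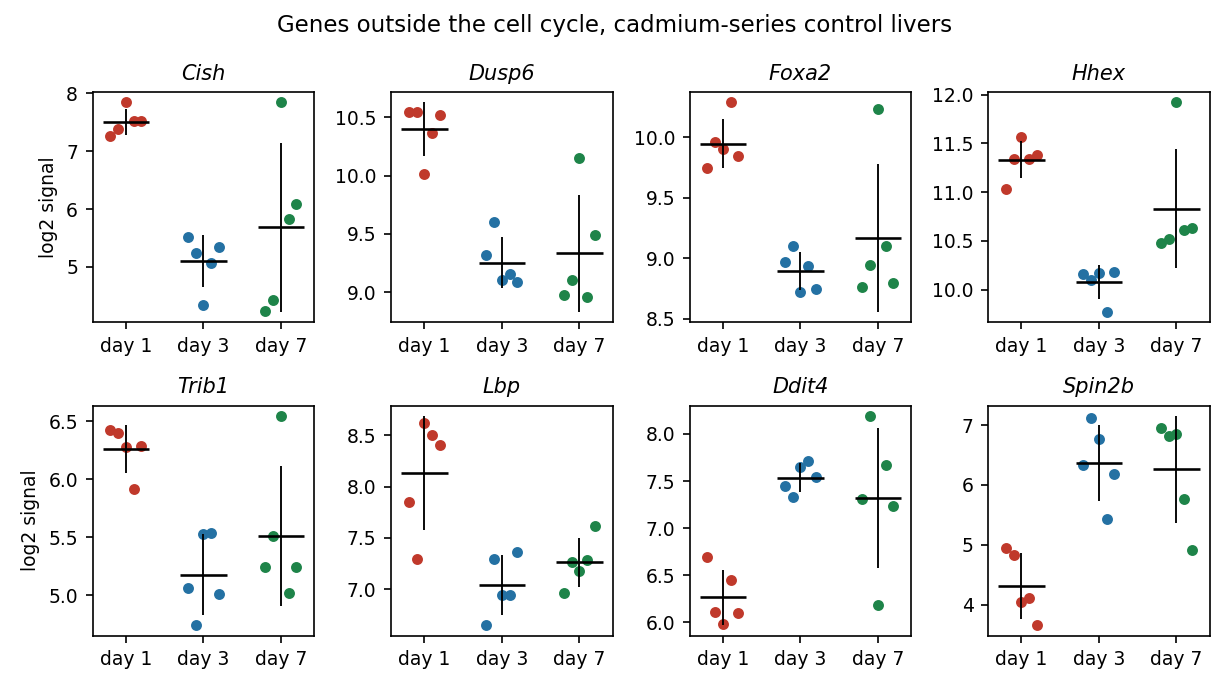
Log2 signal (y axis) of 8 genes outside the cell cycle in each cadmium-series control liver on days 1, 3 and 7 (x axis); points are livers, horizontal lines are means and vertical lines are ±1 SD (n = 5 per day). For Cish, Dusp6, Foxa2, Hhex and Trib1 a single liver of day 7 lies at the level of day 1 (7.84 for Cish), and for Ddit4 the same liver lies low at 6.18.

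The 26 higher probe sets were fewer and belonged to no single list. Spin2b, of the spindlin family of chromatin proteins, had the largest rise. Its log2 signals were 4.95, 4.83, 4.04, 4.11 and 3.66 on day 1, 6.34, 7.11, 6.76, 5.43 and 6.18 on day 3, and 6.95, 6.82, 6.86, 5.77 and 4.91 on day 7. Later livers were higher except that liver 5 of day 7 lay just under the highest liver of day 1 (log2 difference 2.00 ± 0.34, SE, limma, adjusted p = 0.00607). Every liver of day 1 lay below 5.40, the mean signal required for testing. Spin2b thus passed that filter only through days 3 and 7, and its call was kept without the filter. In Cr controls its difference was 1.39 and was not called (adjusted p = 0.210, limma).

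Ddit4, a stress-induced inhibitor of the mTORC1 growth pathway, had log2 signals of 6.69, 6.11, 5.98, 6.45 and 6.10 on day 1, 7.45, 7.33, 7.65, 7.71 and 7.54 on day 3, and 7.31, 8.19, 6.18, 7.67 and 7.24 on day 7. Among the later livers, liver 3 of day 7 was at the level of day 1 and the other 9 were above it (log2 difference 1.16 ± 0.23, SE, limma, adjusted p = 0.0165). Without that liver the rise was 1.30, and the call was lost without liver 3 or 5 of day 1. Herpud1, which serves the degradation of misfolded proteins at the endoplasmic reticulum, had log2 signals of 10.04, 9.91, 10.11, 9.53 and 9.74 on day 1, 10.59, 10.41, 10.41, 10.61 and 10.27 on day 3, and 10.33, 10.36, 10.24, 10.57 and 10.36 on day 7. The days did not overlap (log2 difference 0.55 ± 0.09, SE, limma, adjusted p = 0.00429), and it was the 1 called of 18 tested genes of protein folding in that compartment.

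Smaller rises were called for Mex3b, an RNA-binding protein (0.76 ± 0.17), Skida1 (0.49 ± 0.11), Stbd1, a glycogen-binding protein (0.44 ± 0.10), Pard6b, a polarity protein (0.43 ± 0.08), Nfkbia, the inhibitor of NF-kB (0.43 ± 0.09), Lpar6, a lysophosphatidic acid receptor (0.40 ± 0.07), and Parp16, an enzyme of the endoplasmic reticulum membrane (0.35 ± 0.07; all SE, limma). The calls of Spin2b, Herpud1, Pard6b and Lpar6 held with any single liver left out, and those of the other rises named here did not. The T-box factor Tbx3 had log2 signals of 6.14, 5.40, 6.13, 5.36 and 5.15 on day 1, 6.70, 6.80, 6.76, 6.68 and 6.64 on day 3, and 6.07, 6.22, 5.79, 5.84 and 6.08 on day 7. It was above day 1 in every liver of day 3, and its livers of day 7 lay within or just above the day 1 range. Its difference was 1.08 on day 3 (adjusted p = 0.00318) and 0.36 on day 7 (adjusted p = 0.553), both from limma, and day 7 was not shown to differ from day 3.

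The clock genes changed little. Of 14 tested, Wee1 was the 1 lower on days 3 and 7, and Nr1d2, which encodes the repressor REV-ERB beta, was higher on day 3 alone (0.71, adjusted p = 0.0390, limma). Bmal1, which heads the positive arm of the clock, had a log2 difference of 0.04 ± 0.08, Per1 one of 0.02 ± 0.09 and Per2 one of -0.17 ± 0.21 (SE, limma). In all, 22 of the 32 lists of other processes held no called gene and no list held more than 1, with 4 higher and 6 lower entries of 490 tested. Ddit4 was entered in more than 1 of these lists. Of all probe sets 1.1% were called, so 0 or 1 call in a list says little about that list. Metallothioneins and zinc transporters, the genes that cadmium itself induces, had 0 called of 8, which says as little beside the 1.1% of all probe sets. Mt2A lay between 7.34 and 9.98 in the 15 livers.

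Some genes varied widely between livers of the same day. Among 15521 probe sets, 39 (0.251%) had an SD within days above 1, against a median of 0.151. The largest SD, 3.56, belonged to a probe set shared by the class I histocompatibility genes RT1-A2 and RT1-A3. Its log2 signals were 3.82, 4.01, 3.55, 10.71 and 10.80 on day 1, 10.20, 11.32, 11.24, 9.82 and 3.93 on day 3, and 11.25, 4.14, 10.04, 10.39 and 3.44 on day 7. The livers fell into 6 at 4.14 or less and 9 at 9.82 or more, with none between and both kinds present on each day.

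**Figure D5:**
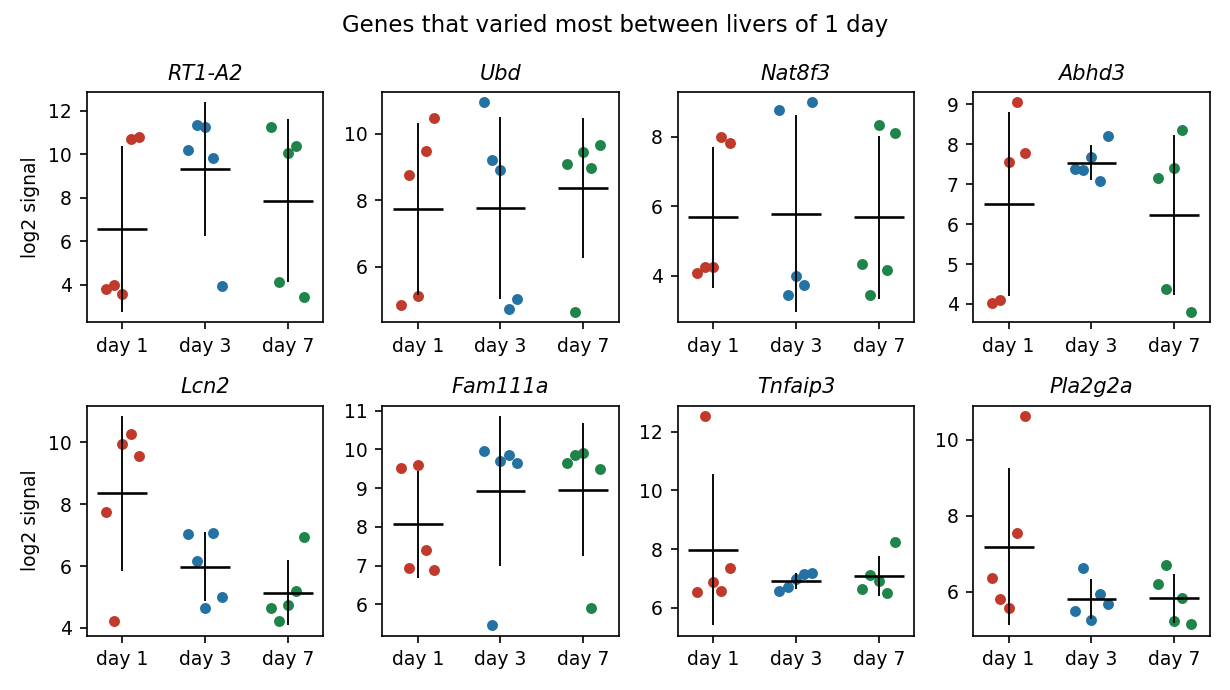
Log2 signal (y axis) of 8 genes with a large SD between livers of 1 day, in each cadmium-series control liver on days 1, 3 and 7 (x axis); points are livers, horizontal lines are means and vertical lines are ±1 SD (n = 5 per day). The probe set marked RT1-A2 (shared with RT1-A3) and those of Ubd and Nat8f3 have livers at 5.11 or less and livers at 7.82 or more on each day, and Tnfaip3 has 1 liver at 12.53.

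Ubd, a ubiquitin-like protein, had log2 signals of 4.85, 8.75, 5.11, 9.49 and 10.48 on day 1, 10.94, 9.22, 8.90, 4.74 and 5.04 on day 3, and 9.08, 4.66, 9.46, 8.96 and 9.67 on day 7. Here 5 livers lay at 5.11 or less and 10 at 8.75 or more. Nat8f3, an acetyltransferase, had log2 signals of 4.07, 4.25, 4.24, 8.01 and 7.82 on day 1, 8.77, 3.45, 3.997, 3.73 and 8.99 on day 3, and 4.34, 3.43, 8.36, 4.15 and 8.10 on day 7. Its lower group held 9 livers at 4.34 or less and its upper group 6 at 7.82 or more. Liver 5 of day 3 was low for Ubd and high for Nat8f3.

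Abhd3, a phospholipid hydrolase, lay at 4.38 or less in 4 livers and at 7.07 or more in 11. Fam111a, a protease, was at 7.40 or less in 5 livers and at 9.50 or more in 10. Tnfaip3 (A20), the NF-kB inhibitor, had log2 signals of 6.56, 12.53, 6.89, 6.56 and 7.35 on day 1, 6.57, 6.71, 6.99, 7.16 and 7.19 on day 3, and 6.66, 7.11, 6.91, 6.51 and 8.24 on day 7. Liver 2 of day 1 alone stood at 12.53. Pla2g2a, a secreted phospholipase, reached 10.63 in liver 5 of day 1 and 7.55 or less in the other 14 livers. The class II gene RT1-Bb had an SD within days of 1.25 and Pnpla3, a lipase of lipid droplets, one of 1.27. In Cr controls the same RT1-A2 probe set ran from 4.07 to 11.53 on day 7 and from 3.36 to 11.15 on day 1, and Ubd ran from 4.93 to 9.08 on day 7 and from 4.58 to 8.73 on day 1. None of these genes was called between days.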

How the data were processed

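Total RNA of rat liver was hybridised as biotinylated cRNA to Affymetrix arrays. The authors ran RMA (robust multi-array averaging) with the Partek software, release 6.6, for background, normalization and probe set summaries, and the deposited log2 values were used unchanged. Whether the series, or the control and exposed livers, were normalized together is not given in the sources used here. Replicates are labelled as biological, and the tests set differences between days against the spread between livers of the same day.

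The 57 control probe sets of 31099 were left out, and probe sets whose mean over the 15 Cd control arrays was at or above the median (5.40) were tested, 15521 in all. Group means for the 3 days entered a linear model (limma 3.58.1, R 4.3.3). P-values were adjusted by Benjamini-Hochberg over all probe sets tested, and a call needed an adjusted p of 0.05 or less with no fold threshold; 67 of the 171 calls also differed by 1.8-fold. Cr controls were fitted alone, and the difference between the series in 1 fit of 30 arrays. Only the comparison of the later Cd control livers together with those of day 1 was also tried on simulated data, and the other tests were not.

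A gene was read on its brightest probe set with 1 symbol; 20826 probe sets had 1 symbol, 436 several and 9780 none. Of 758 entries in 49 gene lists 693 had a probe set. The members and lists were chosen with earlier results of these data known. The named genes follow a rule: the largest called changes in each comparison, up to 4 members of each list, and the genes with the largest SD within days. Hhex, Trib1, Gadd45g, Hes1, Dact1, Socs2, Bcl6, Igf1 and several cell cycle genes were added after their values were seen, and not every gene the rule names is in the text. Motifs were searched in RefSeq promoters (GRCr8) on both strands. Tables and figures were made with Python 3.11.15. Alternatives were an ordinary linear model, other filters on dim probe sets, quantile normalization again, array weights, a replicate block, a fit of all 30 control arrays, and each array left out. Exposed livers are not analysed here.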

Additional observations from a re-analysis of the deposited data

Results flagged for a closer look

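The 3 days of 87 named genes were searched for a liver far from the other 4 of its day (Dixon's ratio above 0.71). The search marked 24 of 261 groups of livers, and chance marks about 1 in 20 in genes not chosen for their values. Some of the genes were named for a large SD within days or after the values of liver 3 of day 7 were seen, which raises the number marked, so nothing is read from the excess.

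Liver 3 of day 3 was the lowest of its day for 6 cell cycle genes. Its log2 signal was 6.36 for Ccna2 (nearest other liver 7.09), 5.84 for Aurka (6.45), 6.22 for Ube2c (6.90), 5.01 for Kif22 (5.48), 6.85 for Ect2 (7.45) and 8.72 for Rrm2 (9.84). These genes share the liver and the direction, so they are not separate observations.

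Liver 3 of day 7 stood low for mitosis and high for liver regulators. It had 7.18 for Cdk1 (nearest other liver 7.71) and 6.35 for Kif20a (6.77), but 10.23 for Foxa2 (9.11), 11.92 for Hhex (10.63) and 6.49 for Dact1 (5.32), an inhibitor of Wnt signalling.

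Liver 5 of day 7 stood high for cell cycle genes and a heat shock gene. It had 6.75 for Wee1 (nearest other liver 6.50), 6.81 for Mcm6 (5.95), 8.32 for Mcm7 (8.03) and 9.08 for the inducible heat shock protein Hspa1a (6.04).

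Single livers were marked for other genes. On day 1 liver 2 had 12.53 for Tnfaip3 (nearest other liver 7.35) and 5.64 for Pnpla3 (7.73), and liver 4 had 5.92 for Trib1 (6.28). On day 3 liver 4 had 9.77 for Hhex (10.10), liver 1 had 9.38 for Hes1 (9.83), liver 5 had 3.93 for the probe set of RT1-A2 (9.82) and liver 2 had 5.46 for Fam111a (9.65). On day 7 liver 2 had 4.66 for Ubd (8.96) and liver 4 had 5.90 for Fam111a (9.50).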

How the results depend on the processing

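The counts of called probe sets for days 3 and 7 against day 1 (171), day 3 against day 1 (153) and day 7 against day 1 (96) stayed within 1.5 times under each of the 8 other settings, at 127 to 229, 110 to 190 and 68 to 138. Leaving out 1 liver at a time gave 123 to 220, 107 to 182 and 71 to 145, the last without liver 3 of day 7. Day 7 against day 3 gave 0 calls in all of them. The 236 calls in Cr controls ran from 142 to 420 with 1 liver left out, and the test of the difference between the series, 0 with all livers, ran from 0 to 16 (0 to 4 without any liver other than liver 3 of day 7). The mitosis list had 24 to 31 lower genes under the other settings and 27 to 29 with 1 liver left out. The DNA synthesis list had 7 to 12 and 5 to 12. With the mean of all probe sets of a gene, the median differences were -1.18 and -0.35. The median SD within days was 0.148 to 0.153 with 1 liver left out. Of the 51 named genes called on days 3 and 7, 32 kept their call in every alternative, and none of the 87 named genes changed direction past the threshold.

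Replicate numbers are shared by the days, but livers of the same number correlated at a mean of 0.104 (others -0.026), with 8 of 15 pairs above 0.1, and 9 of 15 livers matched best with their own number, a hint in the data of a shared effect. Since no label ties a number to a litter or day and not every pair exceeded 0.1, the numbers were not taken as pairs. With the replicate number as a block, 171 probe sets were called, 147 of them shared with the fit without it; Fen1, Lig1, Mcm5, Mcm7 and Skida1 were not called, and the difference between the series had 1 call. In the ordinary linear model 16 of the 51 calls were lost, Cish, Ddit4, Lbp, Foxa2, Hhex and Trib1 among them. No causes were tested.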
